A study of Homo sapiens with 6 samples.

Results

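EFEMP1, HAPLN3 and MFGE8 encode proteins that cells secrete into the extracellular matrix, and the measurements below are their mRNA levels in myeloma cells cultured with or without all-trans retinoic acid (ATRA). The 3 genes were taken by symbol from the 14884 genes with a name on the arrays, with 1 probe set each. They were chosen because their values differed between ATRA and DMSO, so that difference is described here without a test.

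The cells were MM.1S, an established human multiple myeloma line, which is a cancer of plasma cells. All cells had a pulse of Cfz (the usual abbreviation of the proteasome inhibitor carfilzomib) for 1 h. They were then cultured for 12 h with 10 µM ATRA (3 arrays) or with DMSO, the solvent (3 arrays). Both groups carried the Cfz pulse, and no Cfz-free cells entered the comparison. The model is 1 cell line, and the labels do not tell whether arrays of a group are separate cultures, so the spread behind every p-value may be technical.

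Median intensity over 53617 probe sets was 9.40 to 9.76 per array, and precision is limited by how few arrays there are. A gene counts as measured below if it had a named probe set, and other genes may lie among the unnamed probe sets. Of 10 plasma cell markers, 7 were measured, and 6 of them (CD38, IRF4, MZB1, SDC1, SLAMF7 and XBP1) lay above the 96th percentile of mean levels, while POU2AF1, a B lineage coactivator, lay at the 66.5th. CD38, SDC1 and XBP1 rose with ATRA, by log2 differences of 1.95, 0.84 and 0.54 (limma, adjusted p = 0.000145, 0.00274 and 0.0175), and the other 4 did not pass. Markers of fibroblasts, macrophages, endothelial, T, NK and epithelial cells were measured for 22 of 37 genes. In limma's test 0 of these 22 passed, against 3.80% of all genes, and 2 had an unadjusted p under 0.05. Their summed intensity was 917 to 1012 with ATRA and 1082 to 1177 with DMSO. Without CD68, a lysosomal protein gene that gave most of this sum, it was 381 to 406 with ATRA and 371 to 473 with DMSO.

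EFEMP1, also called fibulin-3, is a glycoprotein with EGF-like repeats that belongs to the fibulins, a family found at basement membranes and elastic fibres. HAPLN3 belongs to the link proteins, which hold proteoglycans of the aggrecan family (lecticans) on hyaluronan, the long sugar chain of pericellular matrix. MFGE8, or lactadherin, binds phosphatidylserine on dying cells with its C-terminal domains and integrins on phagocytes with an RGD motif, and so acts as a bridge in engulfment. ATRA is the ligand of the retinoic acid receptors, which pair with retinoid X receptors and bind DNA at repeats of a short half-site.

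EFEMP1 was 9.01-fold higher with ATRA than with DMSO. Its intensity was 418, 501 and 401 on the ATRA arrays, against 48.6, 51.7 and 45.8 on the DMSO arrays. The groups were far apart, since the lowest ATRA value was 7.76 times the highest DMSO value. The means were 440.1 ± 53.2 with ATRA and 48.7 ± 2.98 with DMSO (SD, n = 3 arrays each), and the log2 difference was 3.17 (SE 0.12, 95% interval 2.90 to 3.44). In a bulk culture, more cells that express the gene and more RNA per cell cannot be told apart.

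HAPLN3 was 6.78-fold higher with ATRA. Its intensity was 152, 173 and 179 on the ATRA arrays, against 22.7, 23.2 and 28.7 on the DMSO arrays. The groups did not overlap, and the lowest ATRA value was 5.29 times the highest DMSO value. The means were 168 ± 14.2 with ATRA and 24.8 ± 3.34 with DMSO (SD, n = 3 arrays each), and the log2 difference was 2.76 (SE 0.13, 95% interval 2.47 to 3.06).

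MFGE8 was 6.68-fold higher with ATRA. Its intensity was 607, 601 and 599 on the ATRA arrays, against 82.9, 98.3 and 89.9 on the DMSO arrays. The lowest ATRA value was 6.09 times the highest DMSO value. The means were 602.5 ± 4.33 with ATRA and 90.4 ± 7.72 with DMSO (SD, n = 3 arrays each), and the log2 difference was 2.74 (SE 0.097, 95% interval 2.51 to 2.97). The ATRA arrays were close together for this gene, with a coefficient of variation of 0.718%, against 8.54% among DMSO arrays.

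**Figure D1:**
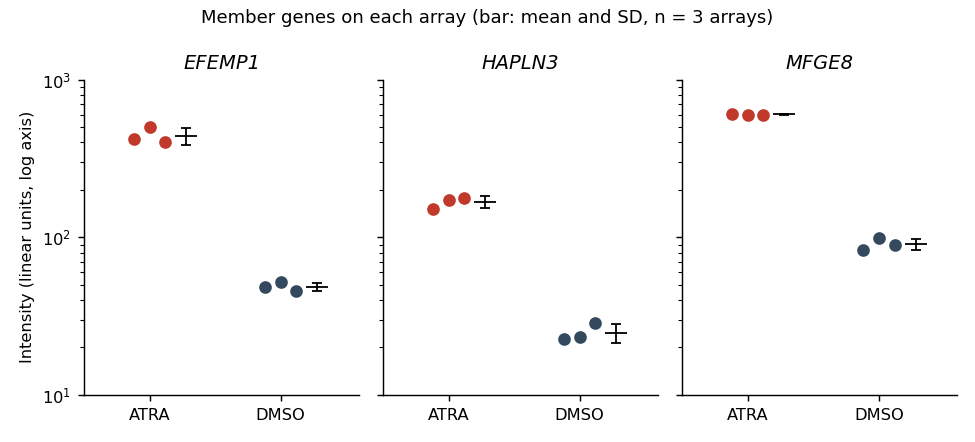
Intensity of EFEMP1, HAPLN3 and MFGE8 on each array (log axis, linear intensity units), with ATRA arrays on the left and DMSO arrays on the right of each panel. Points are arrays and bars are the mean and SD of 3 arrays. In each panel the lowest ATRA point lies above the highest DMSO point, by 7.76, 5.29 and 6.09 times.

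All 3 genes had their 3 ATRA values above their 3 DMSO values. Over all genes 9.86% did so, a share given only as background because the genes were chosen on this contrast. By size of increase EFEMP1 was at place 2, HAPLN3 at place 5 and MFGE8 at place 6 of the 14884 genes, and the median log2 difference of all genes was -0.01. The largest increase was that of CALCRL, a receptor subunit for adrenomedullin and calcitonin gene-related peptide, at a log2 difference of 5.13. At place 3 was SREBF1, a transcription factor of lipid synthesis, with 3.15.

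All 3 genes lay above the median probe set on every array, which does not tell signal from background. Among all probe sets of the same array, EFEMP1 stood at the 94.9th to 95.8th percentile with ATRA and at the 79.3rd to 80.4th with DMSO. HAPLN3 stood at the 89.2nd to 90.3rd percentile with ATRA and at the 70.5th to 74.1st with DMSO. MFGE8 stood at the 96.4th to 96.5th percentile with ATRA and at the 84.5th to 85.8th with DMSO. HAPLN3 with DMSO was the value nearest to the middle of the arrays. Its mean there, 24.8, was below the DMSO means of CD68 (710), KRT18 (154), CD8A (33.4), EPCAM (29.2) and KRT8 (25.4), which are markers of other cell types. Most of the 22 such markers were lower than HAPLN3. Whether HAPLN3 with DMSO was above background was not tested, which limits the reading of its fold. Each gene had 1 probe set, and 0 other probe sets carried the same values.

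**Figure D2:**
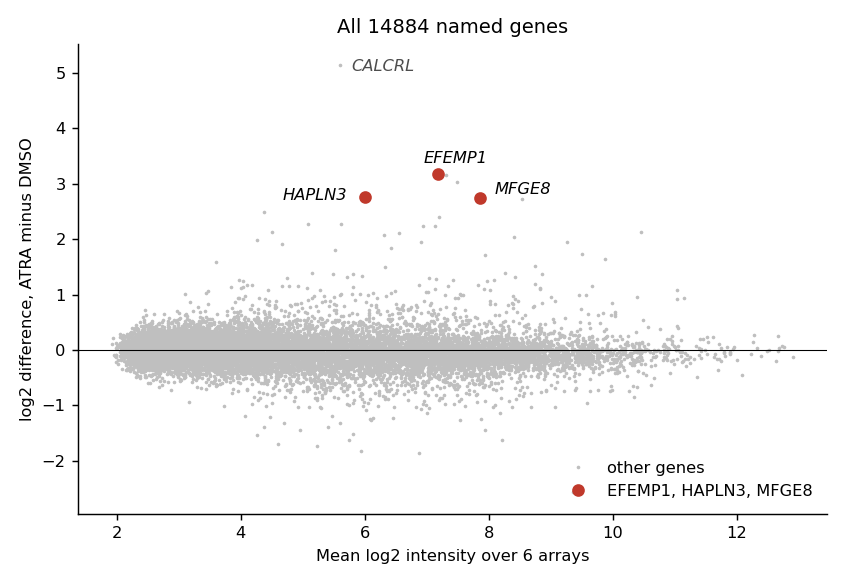
Log2 difference (ATRA minus DMSO) against the mean log2 intensity over 6 arrays for 14884 genes. Grey points are single genes and red points are EFEMP1 (3.17), HAPLN3 (2.76) and MFGE8 (2.74), which lie far above the band of most genes, with CALCRL (5.13) higher still.

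The changes of HAPLN3 and MFGE8 differed by 0.02 on the log2 scale. EFEMP1 exceeded HAPLN3 by 0.41 and MFGE8 by 0.43 in log2 change. The intervals of all 3 changes overlap, which does not tell whether the changes are alike, and the differences among them were not tested.

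Likeness to other genes was measured as the root mean square difference of log2 values over the 6 arrays, after each gene was centred on its own mean. The gene most like EFEMP1 was SREBF1 (0.09 log2 units), followed by FBXO32 (0.23), a ubiquitin ligase subunit, then MFGE8 (0.24), DDIT4 (0.27) and HAPLN3 (0.28). DDIT4, an inhibitor of mTORC1 signalling, was the gene most like HAPLN3 (0.09) and also the gene most like MFGE8 (0.09). HAPLN3 and MFGE8 were each other's second nearest gene (0.15). The next genes for HAPLN3 were FBXO32 (0.20), CTSZ (0.21), a lysosomal cathepsin, and SREBF1 (0.25), and for MFGE8 they were CTSZ (0.19), SREBF1 (0.21) and FBXO32 (0.23). With samples in only these groups, the measure is set mostly by the size of the change, and these genes are the other large increases.

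HAPLN3 and MFGE8 are next to each other on chromosome 15 and lie on the same strand, with HAPLN3 downstream of MFGE8. Their promoters are printed here because the genes moved by nearly the same amount. The sequences are the 250 bases before each gene's start in RefSeq (GRCh38.p14, minus strand), HAPLN3 at chr15:88895545-88895794 and MFGE8 at chr15:88913380-88913629. They are given 5′ to 3′ in the direction of the gene, and capitals mark matches to the motifs searched. The table holds 1 start for HAPLN3 and 2 for MFGE8, of which only 1 is shown and searched.
HAPLN3: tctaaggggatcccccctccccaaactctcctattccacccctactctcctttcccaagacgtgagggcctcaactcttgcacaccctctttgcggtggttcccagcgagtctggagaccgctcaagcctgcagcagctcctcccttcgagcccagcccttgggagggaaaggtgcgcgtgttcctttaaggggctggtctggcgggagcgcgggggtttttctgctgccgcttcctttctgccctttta
MFGE8: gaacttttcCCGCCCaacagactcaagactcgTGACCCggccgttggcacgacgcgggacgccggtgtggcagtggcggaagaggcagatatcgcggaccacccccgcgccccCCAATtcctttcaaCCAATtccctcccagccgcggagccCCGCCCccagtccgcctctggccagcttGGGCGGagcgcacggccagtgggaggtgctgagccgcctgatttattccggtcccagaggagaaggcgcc
The HAPLN3 window had a GC content of 60.4% and 11 CpG sites, and the MFGE8 window had 67.6% and 24 CpG sites, against medians of 58.0% and 11 over all promoters.

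Searched on both strands were 4 spellings of the retinoic acid receptor half-site, which are AGGTCA, its variant AGTTCA, its variant GGGTCA and its variant GGTTCA. The search also took the GC box (GGGCGG), the CCAAT box (CCAAT) and the TATA box (TATAAA), and no matches overlapped each other. The MFGE8 window held GGGTCA once, on the opposite strand, at bases 218 to 213 before the start. Any of the 4 half-site spellings occurred in 33.8% of 35114 promoters of the same length, and GGGTCA in 12.1%. The MFGE8 window also held 3 GC boxes (42.6% of promoters have the motif) and 2 CCAAT boxes (32.0%), at bases 137 to 133 and 123 to 119. The HAPLN3 window held 0 matches to any of the 7 motifs. TATAAA was in neither window and in 10.7% of promoters. These counts describe letters in the printed windows only.

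The genes around the members were examined to see whether the difference reached beyond them. Among the 10 nearest protein-coding genes on each side of the HAPLN3 and MFGE8 pair, 14 of 20 were measured, and 0 rose, 1 fell and 13 did not pass (limma, adjusted p at most 0.05 over all genes). Around EFEMP1 on chromosome 2, 13 of 20 were measured, and 0 rose, 1 fell and 12 did not pass. Together that is 7.41% of 27 neighbours, against 3.80% of all genes, and the median log2 difference was -0.12, against -0.01 over all genes.

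Neither immediate neighbour of the pair passed the test. ACAN, the gene of aggrecan, which link proteins tether to hyaluronan, lies beside HAPLN3. It had intensities of 6.15, 7.02 and 5.19 with ATRA, against 6.71, 9.43 and 5.52 with DMSO, so the groups overlapped at a low level (log2 difference -0.21, SE 0.21, adjusted p = 0.664). ABHD2, a lipid hydrolase gene beside MFGE8, was at a mean of 10.47 log2 units with ATRA and 10.50 with DMSO (difference -0.03, adjusted p = 0.911). Further out, ISG20, an interferon-induced exonuclease gene, had a log2 difference of 0.20, DET1, a ubiquitin ligase component, 0.25, AEN, a nuclease induced by p53, -0.06, MRPS11, a mitochondrial ribosomal protein, 0.00, and RLBP1, a retinaldehyde-binding protein of the retina, -0.36. Their adjusted p-values lay between 0.155 and 0.996 (limma).

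Beside EFEMP1, PNPT1, a mitochondrial RNA-processing enzyme, had a log2 difference of -0.12 and CCDC85A 0.17 (adjusted p = 0.546 and 0.708, limma). MTIF2, a mitochondrial translation factor, had 0.30, CFAP36 0.27 and BCL11A, a transcriptional repressor of blood lineages, -0.39, none past the threshold. CCDC88A, which encodes the actin-binding protein girdin, fell by 0.68 on the log2 scale (SE 0.099, adjusted p = 0.0134, limma). Its intensities were 17.0, 20.1 and 17.5 with ATRA, against 29.9, 28.6 and 28.8 with DMSO, with no overlap. The call was lost without ATRA replicate 1 or 3 or DMSO replicate 1 or 3 (adjusted p up to 0.0637, limma). The microRNA genes MIR217, MIR216A and MIR216B, which lie between EFEMP1 and CCDC85A and were looked up after the values were seen, had log2 differences of 0.05, 0.20 and 0.00.

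TICRR, 8 genes from MFGE8 and named after its value was seen, encodes a factor needed to fire replication origins. It had intensities of 143, 143 and 128 with ATRA, against 225, 272 and 189 with DMSO, and fell by 0.71 on the log2 scale (SE 0.14, adjusted p = 0.0433, limma). The call was lost without any 1 of the arrays other than DMSO replicate 3 (adjusted p up to 0.132) and with quantile normalization (adjusted p = 0.0549).

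**Figure D3:**
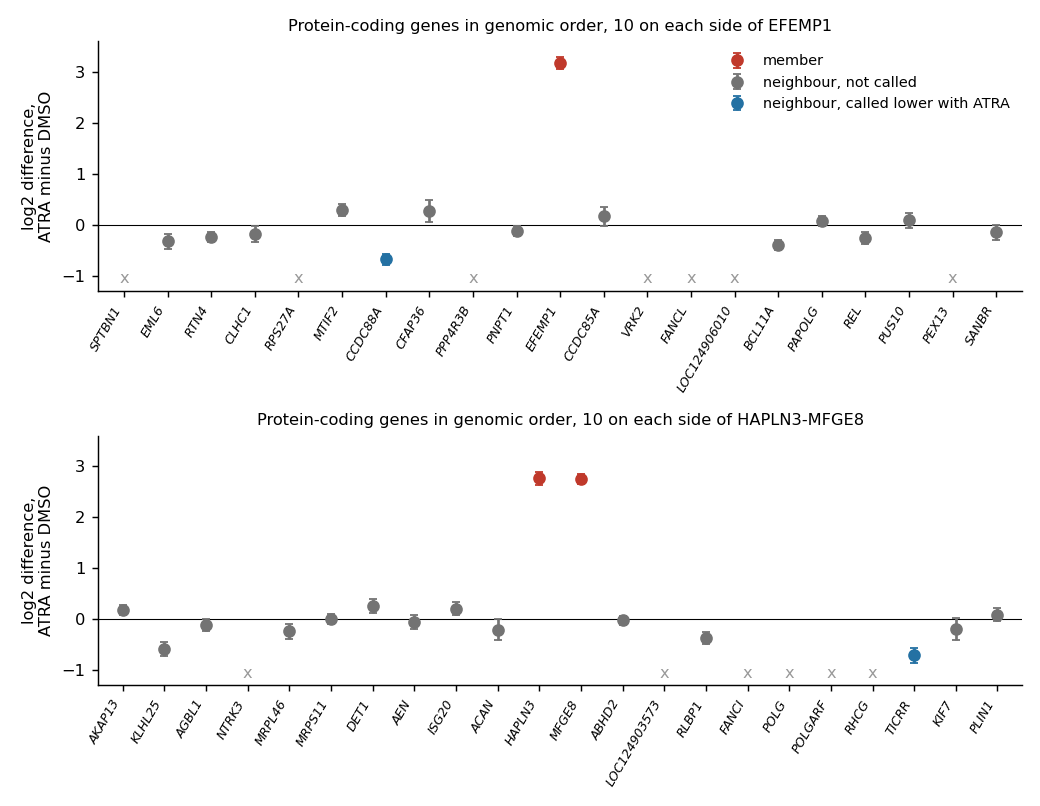
Log2 difference (ATRA minus DMSO) with its SE for EFEMP1 (top) and for HAPLN3 and MFGE8 (bottom) and the 10 protein-coding genes on each side, in genomic order and not to distance. Red points are EFEMP1, HAPLN3 and MFGE8, blue points passed the test, grey points did not, and crosses mark genes not analysed here. The red points stand at 2.74 to 3.17, while the neighbours range from -0.71 to 0.30.

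Neighbouring pairs that are both strongly higher were few. Of 7849 pairs of adjacent protein-coding genes with both genes measured, 4 (0.0510%) had both genes at least 2-fold higher with ATRA, HAPLN3 and MFGE8 among them. The other pairs were PLAAT4 with PLAAT2 (log2 differences 1.84 and 1.39), DENND2C with AMPD1 (1.37 and 1.96) and HNRNPLL with GALM (1.01 and 1.36). In HAPLN3 and MFGE8 the smaller change of the pair was 2.74, against 1.39, 1.37 and 1.01 in the others. This is a description, since HAPLN3 and MFGE8 were chosen on these values.

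Each link protein gene is the neighbour of a lectican gene in the human genome, and all 8 genes of these pairs were measured. HAPLN3 was chosen on this contrast, so no test result is read for it. None of the other genes of these pairs passed the test. HAPLN1 and VCAN (versican) had log2 differences of -0.21 and 0.15, HAPLN2 and BCAN (brevican) 0.09 and 0.16, and HAPLN4 and NCAN (neurocan) 0.12 and 0.12. Their adjusted p-values lay between 0.456 and 0.822 (limma). HAPLN1 had intensities of 4.61, 4.25 and 5.47 with ATRA, against 5.13, 5.30 and 6.10 with DMSO. HAPLN2 had 20.5, 18.0 and 17.9 with ATRA, against 20.0, 17.0 and 16.0 with DMSO. HAPLN4 had 21.3, 15.1 and 12.0 with ATRA, against 13.8, 14.6 and 15.0 with DMSO. In each of these 3 link protein genes the groups overlapped.

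In the list of elastic fibre and fibulin genes, 29 of 30 were measured, and 0 rose and 0 fell (limma, where 3.80% of all genes were called), with 4 at an unadjusted p under 0.05 and a median log2 difference of -0.01. EFEMP2 (fibulin-4), the closest family member, had intensities of 64.0, 37.8 and 58.3 with ATRA, against 57.1, 56.7 and 52.6 with DMSO (log2 difference -0.09, SE 0.19). FBLN1 had a log2 difference of -0.17, FBLN2 0.08 and FBLN5 0.26, with adjusted p-values of 0.435, 0.775 and 0.199 (limma). The largest differences of the list were those of FBLN7 (-0.44, adjusted p = 0.230) and EMILIN1 (0.44, adjusted p = 0.247), a glycoprotein of elastic fibres. TIMP3, a protease inhibitor known to bind EFEMP1 protein, had -0.22 (adjusted p = 0.533). Of these 29 genes 13 had a mean level under that of the median probe set.

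Among other genes of the hyaluronan matrix, 23 of 31 were measured, and 0 rose and 0 fell (limma, against 3.80% called of all genes), with 1 at an unadjusted p under 0.05 and a median log2 difference of 0.05. That gene was CD44, the main hyaluronan receptor of leukocytes. CD44 had intensities of 234, 209 and 201 with ATRA, against 279, 306 and 310 with DMSO, with no overlap. Its log2 difference was -0.48 (SE 0.10, 95% interval -0.71 to -0.24), and its adjusted p of 0.0506 (limma) was just above the threshold of 0.05. It passed with eBayes trend and robust (adjusted p = 0.00217), without the dimmer 50% of genes (adjusted p = 0.0159) and with probe sets averaged (adjusted p = 0.0499).

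Genes of phosphatidylserine recognition and engulfment, the setting in which MFGE8 protein is best known, were measured for 19 of 29. MERTK rose, GAS6 fell and 17 did not pass, which is 10.5% called against 3.80% of all genes, with a median log2 difference of 0.03. MERTK encodes a receptor kinase that takes up dying cells, and GAS6 encodes the secreted protein that links phosphatidylserine to MERTK and its relatives. The integrin genes ITGAV, ITGB3 and ITGB5, receptors of MFGE8, were not analysed here.

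MERTK had intensities of 119, 151 and 134 with ATRA, against 80.3, 89.6 and 71.2 with DMSO. The groups did not overlap. The change was 1.67-fold (log2 difference 0.74, SE 0.13, adjusted p = 0.0253, limma), and 1.73% of all genes were called higher. The call was lost without ATRA replicate 2 or 3 or DMSO replicate 1 or 3 (adjusted p up to 0.0922).

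GAS6 had intensities of 645, 630 and 711 with ATRA, against 973, 1027 and 867 with DMSO. Here too the groups did not overlap, with ATRA lower. GAS6 fell by 0.53 on the log2 scale (SE 0.10, adjusted p = 0.0405, limma), and 2.07% of all genes were called lower. The call was lost without any 1 of the 6 arrays (adjusted p 0.0685 to 0.131) and with quantile normalization (adjusted p = 0.0520).

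Other genes of this list were below these in size of change. EDIL3, the gene most like MFGE8 in protein structure, had intensities of 5.20, 5.61 and 5.31 with ATRA, against 5.40, 4.13 and 4.79 with DMSO (log2 difference 0.18, adjusted p = 0.497, limma). AXL and TYRO3, the receptor kinases related to MERTK, had 0.22 and -0.15, and PROS1, which encodes the ligand protein S, had -0.15. None of these passed the test.

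Matrix proteases and their inhibitors were measured for 26 of 40 genes, of which 1 rose, 3 fell and 22 did not pass, or 15.4% called against 3.80% of all genes, with a median log2 difference of -0.09. TIMP2, a secreted inhibitor of matrix metalloproteinases, had intensities of 344, 375 and 347 with ATRA, against 606, 583 and 604 with DMSO. It fell by 0.75 on the log2 scale (SE 0.087, adjusted p = 0.00584, limma) and kept its call in all 12 alternatives, with an adjusted p of at most 0.0457. ADAM15, a membrane-bound disintegrin and metalloproteinase, had 145, 155 and 137 with ATRA, against 221, 226 and 223 with DMSO.

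Both genes had wide gaps between the groups compared with their spread. ADAM15 fell by 0.62 on the log2 scale (SE 0.090, adjusted p = 0.0131, limma), a call lost without any 1 of the arrays other than ATRA replicate 2 (adjusted p up to 0.0573). MMP16, a membrane-type matrix metalloproteinase, had intensities of 21.9, 25.5 and 36.6 with ATRA, against 11.9, 11.1 and 13.4 with DMSO. Its rise was 2.26-fold (log2 difference 1.17, SE 0.19, adjusted p = 0.0195, limma), and the call was lost without ATRA replicate 2 or any 1 of the DMSO arrays (adjusted p up to 0.0813). The DMSO values of MMP16 lay slightly above the array medians, and whether they were above background was not tested.

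MMP13, a collagenase, had intensities of 6.44, 5.88 and 7.10 with ATRA, against 14.9, 10.1 and 12.7 with DMSO. The ATRA values lay below the array medians and the DMSO values slightly above them. It fell by 0.94 on the log2 scale (SE 0.16, adjusted p = 0.0211, limma), and the call was lost without any 1 of the arrays other than DMSO replicate 2 (adjusted p up to 0.0847).

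Structural genes of basement membrane and interstitial matrix were measured for 17 of 46. None of the collagen and laminin genes of the list was among the 17, so those were not analysed here. In limma's test 0 rose and 0 fell, against 3.80% called of all genes, 1 had an unadjusted p under 0.05, and the median log2 difference was -0.07. The largest differences were -0.42 for FN1 (fibronectin, adjusted p = 0.134) and 0.38 for TNC (tenascin C, adjusted p = 0.449). FN1 had intensities of 14.4, 13.6 and 18.1 with ATRA, against 19.7, 20.4 and 21.1 with DMSO.

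Over the 5 lists 114 of 176 genes were measured, and 2 rose, 4 fell and 108 did not pass. That is 5.26% called, against 3.80% of all genes, with a median log2 difference of 0.00. The highest log2 difference among the 114 was 1.17, in MMP16, while EFEMP1, HAPLN3 and MFGE8 lay between 2.74 and 3.17.

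**Figure D4:**
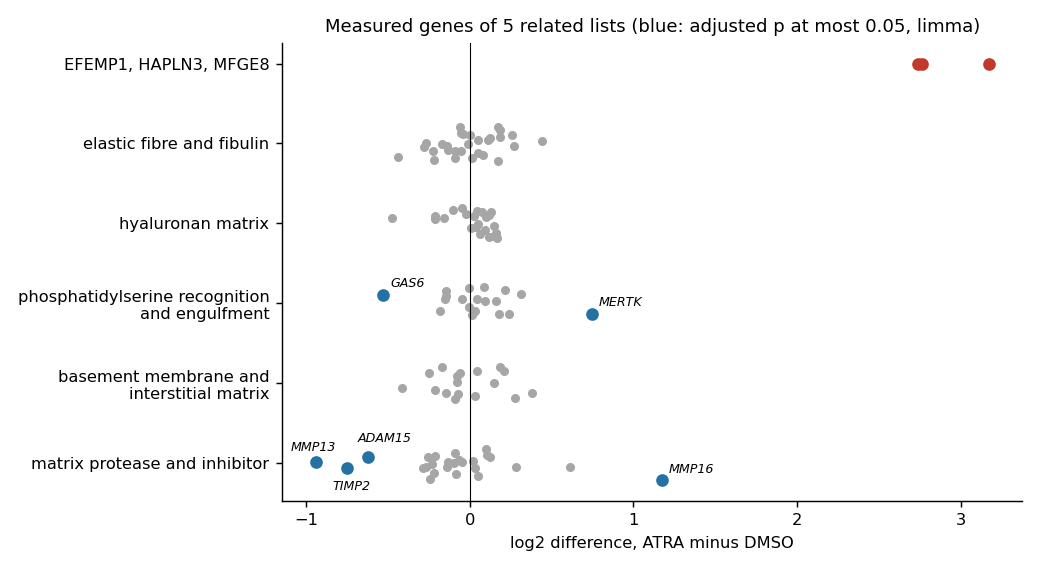
Log2 difference (ATRA minus DMSO) of EFEMP1, HAPLN3 and MFGE8 (red) and of the measured genes of 5 related lists, 1 point a gene. Blue points passed the limma test and grey points did not. The 114 listed genes lie between -0.94 and 1.17, with MERTK and MMP16 as the 2 blue points on the right and GAS6, TIMP2, ADAM15 and MMP13 on the left.

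**Figure D5:**
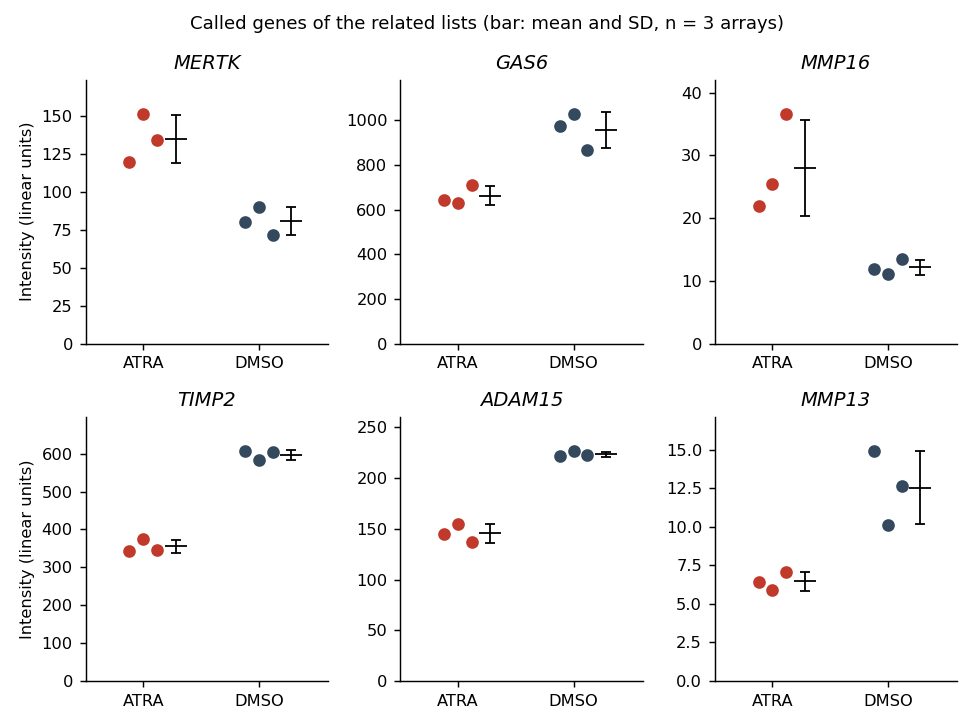
Intensity (linear axis from 0) of the 6 related genes that passed the test, on each ATRA array (left) and DMSO array (right), with the mean and SD of 3 arrays. MERTK and MMP16 were higher with ATRA, GAS6, TIMP2, ADAM15 and MMP13 were lower, and the groups overlapped in none of the 6. These genes were picked by the test on the same arrays, so the lack of overlap is description only.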

How the data were processed

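Total RNA of 6 MM.1S samples was labelled with the GeneChip WT PLUS kit, per the labels' protocols. The deposited values are intensities on a linear scale (2.53 to 14038), as their range shows. RMA and limma are named in the submitters' processing notes without a role, so the authors' background correction and normalization were kept, and folds of dim genes may be compressed by them. The build of the array annotation is not given in the sources used here.

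Of 53617 probe sets, 16098 (30.0%) had exactly 1 symbol in the platform annotation, 0 had several and 37519 are unnamed here. All 16098 matched by Entrez ID a RefSeq gene table (GRCh38.p14), used for names and gene order. Each of 14884 symbols kept the probe set with the highest mean over 6 arrays (779 had several, the 3 members had 1 each). Intensities were turned to log2 with no pseudocount, and folds are ratios of geometric means.

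Differences were fitted with limma 3.58.1 under R 4.3.3 (functions lmFit and eBayes, 3 ATRA against 3 DMSO arrays, no block, no filter, two-sided, Benjamini-Hochberg over 14884 genes, threshold 0.05). Percentiles are over all 53617 probe sets, for markers of their mean log2 levels. The fit was tested on simulated data for ATRA against DMSO with 14884 genes. It recovered 14 of 50 genes changed by 0.5 on the log2 scale, 35 of 50 at 1, 50 of 50 at 2 and 50 of 50 at 3.

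Members, lists, motifs and tests were chosen with earlier results of these data known. Named besides the members were the called genes of each list or, with none, the 2 largest differences, measured neighbours among the 5 nearest genes per side, the 5 most alike genes, family members, CALCRL and SREBF1. CD68, the microRNA genes, TICRR, TIMP3 and the relatives of MERTK were named after their values were seen. Alternatives left out each array in turn or the dimmer 50% of genes, or used a block for the replicate number, quantile normalization, a common median, eBayes with trend and robust, and the mean of a symbol's probe sets.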

Additional observations from a re-analysis of the deposited data

How the results depend on the processing

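The replicate block, eBayes trend and robust, leaving out the dimmer 50% of genes and averaging probe sets cannot change the members' log2 differences. Quantile normalization gave 3.21 for EFEMP1, 2.79 for HAPLN3 and 2.78 for MFGE8, and the common median gave 3.16, 2.75 and 2.73. Over all 12 alternatives the log2 differences ranged from 3.07 to 3.23 for EFEMP1, 2.70 to 2.87 for HAPLN3 and 2.68 to 2.80 for MFGE8. Leaving out 1 array set these ranges, and with 3 arrays a group such a shift must stay under 1 SD between replicates. The count of called genes over all genes, 565, was 1327 with eBayes trend and robust, 1143 without the dimmer 50% of genes and 207 to 317 with 1 array left out. Related genes called higher (2) were 4 with eBayes trend and robust and 0 to 2 with 1 array left out. Related genes called lower (4) were 8 with eBayes trend and robust and 1 to 2 with 1 array left out. Neighbours called (2) were 3 with eBayes trend and robust and 3 without the dimmer 50% of genes. They were 1 with quantile normalization and 0 to 1 with 1 array left out. Fits on 5 arrays have less power. The cause of the other shifts was not tested. Pairs of adjacent genes both at least 2-fold higher stayed at 3 to 5.

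The replicate numbers did not pair the arrays, since deviations from the group means of same-numbered ATRA and DMSO arrays correlated at 0.017, 0.0087 and 0.016 across genes, although each array correlated best with its own number. With the replicate block, 200 genes were called in all, 1 related gene was called higher, 2 were called lower and 0 neighbours were called. Of the related and neighbouring genes named, those not called in that fit were MERTK (adjusted p = 0.0565), GAS6 (0.131), ADAM15 (0.0629), CCDC88A (0.0652) and TICRR (0.0660), by limma. The design of 3 arrays a group and the 37519 unnamed probe sets limit what was analysed.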
